A study of Rattus norvegicus with 12 samples.

Results

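Integrins and laminins were measured in the left ventricle of the rat heart on microarrays. The genes were taken as all current rat symbols that begin with Itga, Itgb, Lama, Lamb or Lamc, with Lamp and Lamtor symbols left out. RefSeq listed 44 such symbols, of which 3 were pseudogenes and 41 were protein coding. An array probe was matched through its accession for 28 of them, out of 15715 genes with a matched probe in all. The 28 comprised 6 integrin chains of leukocytes, 11 other integrin chains, 7 laminin chains and 4 genes named after integrins that encode no integrin chain. The other 13 protein-coding symbols had no matched probe and were not analysed here (Itga2, Itga2b, Itga3, Itga9, Itga11, Itgae, Itgav, Itgax, Itgb8, Lama2, Lama3, Lama4 and Lamb1). Each gene was represented by its brightest probe, and 25 of the 28 passed the filter on dim probes and were tested.

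The hearts came from male Sprague-Dawley rats, all of which ate a diet with 60% fructose for 8 weeks. The diet held below 0.01% NaCl (low sodium) or 0.64% NaCl (normal sodium), and some rats of each diet received angiotensin II (AngII), a peptide hormone that constricts vessels and raises aldosterone, at 200 ng/kg/min under the skin during the last 4 weeks. The 4 groups were low sodium with AngII, low sodium, normal sodium with AngII and normal sodium, with 3 arrays each. The study stated 40 rats a diet. The labels number the arrays of a group without saying whether each was 1 animal. The p-values therefore set a difference against the spread between these arrays, which may not be that between animals. No group ate a diet without added fructose, so each difference below is one between fructose-fed rats.

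Integrins are receptors in the cell membrane made of 1 alpha and 1 beta chain, which bind the matrix outside the cell or receptors on other cells and link them to the actin cytoskeleton. Laminins are matrix proteins made of 1 alpha, 1 beta and 1 gamma chain, and they form the sheet of the basement membrane that surrounds cardiomyocytes and underlies the endothelium. In cardiomyocytes the integrins with the beta 1 chain and the dystroglycan complex both bind laminin, while the beta 2 and beta 7 chains are borne by leukocytes.

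Signals are given as log2 of the processed intensity minus the 75th percentile of the same array, so that 0 is the signal of the probe at the 75th percentile. That percentile lay between 1399 and 1988 intensity units on the 12 arrays, over a background of 20 to 29.5 units. Levels of different genes come from different probes and were not compared. The array of normal sodium replicate 1 stood apart: 88 of its spots were marked as nonuniform against 0 to 3 on the others, and limma gave it the lowest array weight (0.28). Each slide carried 1 array of each group, and the replicate number was the slide. A group sat at the same position on all 3 slides, so position and group cannot be told apart. All 7 markers of cardiomyocytes were well above background on every array, as were 7 of 7 endothelial and 10 of 10 macrophage markers. Of 4 markers of epithelium, Krt14 was so on all 12 arrays, Krt5 on 7, Cdh1 on 1 and Epcam on none.

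No integrin or laminin passed the test in any comparison. With limma and Benjamini-Hochberg adjustment over all 20020 probes tested, 0 probes (0%) had an adjusted p under 0.05 in each of the 4 direct comparisons, in the mean low sodium effect, in the mean AngII effect and in their interaction. The smallest adjusted p of a member was 0.19, for Itgbl1 in the mean low sodium effect. At an unadjusted p under 0.05, 6 of 25 members stood out in the low sodium effect without AngII against 7.03% of all probes. Of these, 2 were higher, against 2.87% of all probes, and 4 lower, against 4.16%. Low sodium with AngII gave 3 of 25, all lower, against 11.1% in either direction and 7.41% lower. In the authors' values that comparison gave 4 higher and 3 lower, and with median scaling 1 lower. The same count was 3 of 25 for AngII on normal sodium, all higher, against 7.26% in either direction and 4.24% higher. AngII on low sodium gave 2 of 25, both higher, against 1.71% in either direction and 0.879% higher. Without normal sodium replicate 1 these 4 counts were 2, 3, 2 and 2. The count for low sodium with AngII was 1 without low sodium with AngII replicate 3 or normal sodium with AngII replicate 2. That for AngII on normal sodium was 1 without normal sodium with AngII replicate 2. That for AngII on low sodium was 1 without replicate 1 of low sodium, of low sodium with AngII or of normal sodium with AngII, or without normal sodium replicate 3. Averaged over both infusion states, low sodium gave 7 of 25, all lower, against 12.5% of all probes in either direction and 8.47% lower. That count was 2 when replicate 2 of low sodium, replicate 3 of low sodium with AngII, or replicate 1 or 2 of normal sodium with AngII was left out. Omitting replicate 1 of low sodium gave 3, omitting replicate 1 or 3 of normal sodium gave 4, and with median scaling 1 member was higher and 2 lower. The mean AngII effect gave 0 of 25 against 2.88%, and the interaction 2 of 25 against 5.06%. Over omissions of 1 array the mean AngII count ran from 0 to 2 and the interaction count from 2 to 5, which was 5 when replicate 3 of normal sodium with AngII was left out and 4 when replicate 1 of low sodium with AngII was. Each group of 3 arrays enters 2 of the 4 direct comparisons, so these share arrays and are not independent.

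**Figure D1:**
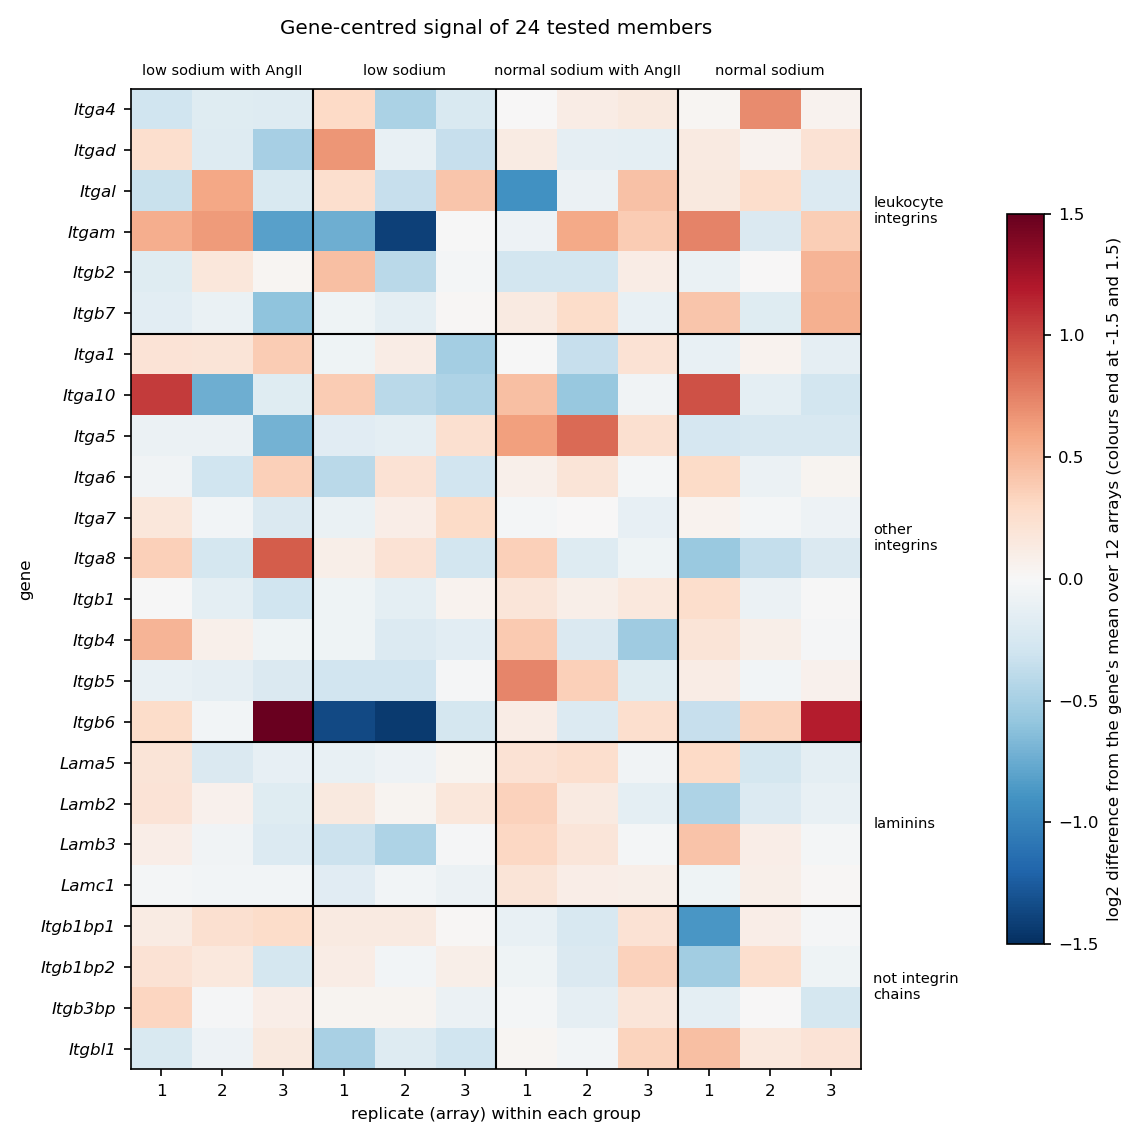
Heat map of 24 of the 25 tested genes (rows, by family) on the 12 arrays (columns, by group and replicate). Colour is the log2 difference of an array from the gene's mean over all arrays, with red above and blue below. Itga5 is red on the 3 normal sodium with AngII arrays, and Itgbl1 is blue on the 3 low sodium arrays.

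The direct comparisons with the smallest p of a member were led by 3 genes, which were Itgbl1, Itga5 and Itgb6. The bases before their starts are shown for these 3, of which none passed the adjusted test. Promoters were matched in RefSeq (GRCr8) for 19 of the 28 members, and the 250 bases upstream of the start are printed 5′ to 3′ on the strand of the gene, with capitals where 1 of 5 searched motifs lay. The printed window of Itgbl1 lies at chr15:107186542-107186791 (gene on the plus strand), that of Itga5 at chr7:136381306-136381555 (minus strand) and that of Itgb6 at chr3:65530334-65530583 (minus strand).
Itgbl1: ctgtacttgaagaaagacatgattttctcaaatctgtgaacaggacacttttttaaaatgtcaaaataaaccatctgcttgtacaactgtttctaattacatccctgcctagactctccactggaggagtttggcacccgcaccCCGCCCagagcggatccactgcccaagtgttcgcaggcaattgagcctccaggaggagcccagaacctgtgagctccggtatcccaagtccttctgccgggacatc
Itga5: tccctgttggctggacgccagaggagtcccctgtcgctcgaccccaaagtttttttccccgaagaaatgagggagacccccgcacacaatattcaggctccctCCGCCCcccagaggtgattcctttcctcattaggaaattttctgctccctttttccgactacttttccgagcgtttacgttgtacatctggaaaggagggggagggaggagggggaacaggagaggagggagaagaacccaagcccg
Itgb6: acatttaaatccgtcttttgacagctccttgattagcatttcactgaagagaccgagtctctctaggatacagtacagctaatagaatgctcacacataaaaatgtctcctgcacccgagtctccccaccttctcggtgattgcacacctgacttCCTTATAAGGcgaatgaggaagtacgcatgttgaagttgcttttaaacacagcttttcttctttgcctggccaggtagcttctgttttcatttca
The motifs searched on both strands were TATAAA (the TATA box), CCAAT (the CCAAT box), GGGCGG (the Sp1 site), TGANTCA (the AP-1 site) and the CArG box, the element bound by serum response factor. No matches of different motifs overlapped in these windows. Itgbl1 and Itga5 each held 1 GGGCGG, on the strand opposite to the gene, and that motif was present in 30.5% of the 33469 promoters of the table. Itgb6 held 1 CArG box, which reads as one on both strands and was present in 1.5% of promoters. The other 3 motifs were in none of the 3 windows. The TATA box was in 12.9% of all promoters, the CCAAT box in 34.0% and the AP-1 site in 6.34%. GC content was 49.6% for Itgbl1, 55.6% for Itga5 and 43.2% for Itgb6, with a median of 51.2% over all promoters. None of this was measured on the arrays.

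Among the integrin alpha chains that bind the RGD motif of matrix proteins, Itga5, which pairs with the beta 1 chain as the classic fibronectin receptor, had the smallest p of all members in 2 of the direct comparisons. Its signal was -0.58, -0.33 and -0.94 in normal sodium with AngII, against -1.44, -1.43 and -1.43 in normal sodium. In low sodium with AngII it was -1.27, -1.27 and -1.90, and in low sodium -1.36, -1.33 and -0.95. The 3 normal sodium with AngII arrays lay above all 6 arrays of normal sodium and of low sodium with AngII. AngII on normal sodium gave a log2 difference of 0.81 ± 0.20 (SE), or 1.76-fold, with 0.87, 1.09 and 0.49 on the 3 slides (unadjusted p = 0.0023, limma adjusted p = 0.67, and 0.53 with slide as a block). Low sodium with AngII against normal sodium with AngII differed by -0.86 ± 0.20 (SE), with -0.69, -0.94 and -0.96 on the 3 slides (limma adjusted p = 0.29, and 0.28 with the block). The AngII difference was -0.26 ± 0.20 on low sodium, where the groups overlapped. Between the diets the AngII difference moved by -1.08 ± 0.29, with the same sign on all 3 slides (limma adjusted p = 0.86). Without normal sodium replicate 1 the difference for AngII on normal sodium was 0.81. Itga8, whose product binds nephronectin and fibronectin and marks stromal and smooth muscle cells, stood at -2.98, -3.53 and -3.39 in normal sodium with AngII against -3.89, -3.69 and -3.54 in normal sodium. Those groups did not overlap, but on low sodium they did, with -2.97, -3.60 and -2.42 with AngII and -3.25, -3.12 and -3.60 without. The log2 difference for AngII was 0.41 ± 0.27 on normal sodium and 0.33 ± 0.27 on low sodium (limma adjusted p = 0.70 and above 0.99). On normal sodium it was 0.92, 0.16 and 0.15 on the 3 slides, 0.25 without normal sodium with AngII replicate 1 and 0.27 with normexp background correction.

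Itga1, a collagen-binding alpha chain found on smooth muscle and fibroblasts, had 2.90, 2.89 and 3.08 in low sodium with AngII against 2.63, 2.81 and 2.19 in low sodium. All 3 AngII arrays were above the low sodium ones. The difference was 0.41 ± 0.18 and differed widely between slides at 0.27, 0.08 and 0.89 (unadjusted p = 0.042, limma adjusted p above 0.99), and it was 0.24 without low sodium replicate 3. On normal sodium, Itga1 read 2.69, 2.35 and 2.91 with AngII against 2.59, 2.75 and 2.57 without, which overlap. Itga10, another collagen-binding chain, was dim and gave differences between -0.34 and 0.20 in the 4 direct comparisons with SE of 0.48.

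The laminin-binding alpha chains had small differences throughout. Itga7, the main laminin-binding alpha chain of muscle, was 1.37, 1.16 and 0.98 in low sodium with AngII, 1.09, 1.29 and 1.49 in low sodium, 1.16, 1.20 and 1.07 in normal sodium with AngII, and 1.25, 1.17 and 1.12 in normal sodium. All groups overlapped, and the 4 direct log2 differences lay between -0.12 and 0.11 with SE of 0.13. For low sodium with AngII against normal sodium with AngII the 95% interval ran from -0.27 to 0.32. Itga6, which pairs with beta 1 or beta 4, had direct differences between -0.23 and 0.16 with SE of 0.20.

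Itgb1, the beta chain shared by most matrix-binding integrins, read 2.16, 2.01 and 1.87 in low sodium with AngII against 2.34, 2.25 and 2.32 in normal sodium with AngII. Without AngII it read 2.10, 2.02 and 2.22 in low sodium against 2.43, 2.07 and 2.17 in normal sodium. The groups with AngII did not overlap and those without did. The low sodium difference was -0.29 ± 0.12 with AngII (unadjusted p = 0.040, limma adjusted p = 0.43, and 0.41 with the block) and -0.11 ± 0.12 without. The difference with AngII was -0.19 with median scaling. A second tested Itgb1 probe gave -0.11 ± 0.11 with AngII and 0.14 ± 0.11 without, so the probes had opposite signs in rats without AngII. Itgb5, the beta chain that joins alpha v to bind vitronectin, read 0.41, 0.39 and 0.30 in low sodium with AngII against 1.26, 0.88 and 0.34 in normal sodium with AngII. Without AngII it read 0.24, 0.23 and 0.50 in low sodium against 0.64, 0.48 and 0.58 in normal sodium. Both pairs overlapped. The mean low sodium difference was -0.35 ± 0.14 (unadjusted p = 0.027, limma adjusted p = 0.33) on the brightest probe and -0.19 ± 0.16 on the second. Without slide 1 it was -0.22 on the brightest probe.

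Itgb6, an epithelial beta chain whose integrin activates TGF-beta, was dim. It read -5.48, -5.79 and -4.27 in low sodium with AngII against -7.10, -7.18 and -6.02 in low sodium, where 1 of 3 arrays was well above background. With normal sodium it read -5.63, -5.95 and -5.49 with AngII against -6.10, -5.41 and -4.57 without, and all 6 arrays were well above background. Low sodium replicates 1 and 2 were the lowest of the 12 arrays, and all 3 low sodium arrays lay below those of low sodium with AngII, while replicate 3 overlapped normal sodium. AngII on low sodium gave 1.59 ± 0.47 and 1.62, 1.39 and 1.75 on the 3 slides (unadjusted p = 0.0066, limma adjusted p above 0.99, and 0.82 with slide as a block). Low sodium without AngII gave -1.41 ± 0.47 (unadjusted p = 0.013, limma adjusted p = 0.63). The interaction was 1.92 ± 0.67 (unadjusted p = 0.015, limma adjusted p = 0.86). With normexp background correction the 3 values were 0.61, -0.61 and 0.86, and in the authors' values the first of them was 0.91 and the second -0.68. Itgb4, the partner of alpha 6 in hemidesmosomes of epithelia and also borne by endothelium, gave -0.23 ± 0.22 for low sodium without AngII, with no overlap between the groups, and 0.29 ± 0.22 with AngII, with overlap. Itgb3, which forms the fibrinogen receptor of platelets with alpha IIb, was too dim to be tested: between 1 and 2 of 3 arrays a group were well above background. Its probe read -6.13, -6.31 and -5.19 in normal sodium with AngII against -7.56, -7.07 and -6.16 in normal sodium.

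**Figure D2:**
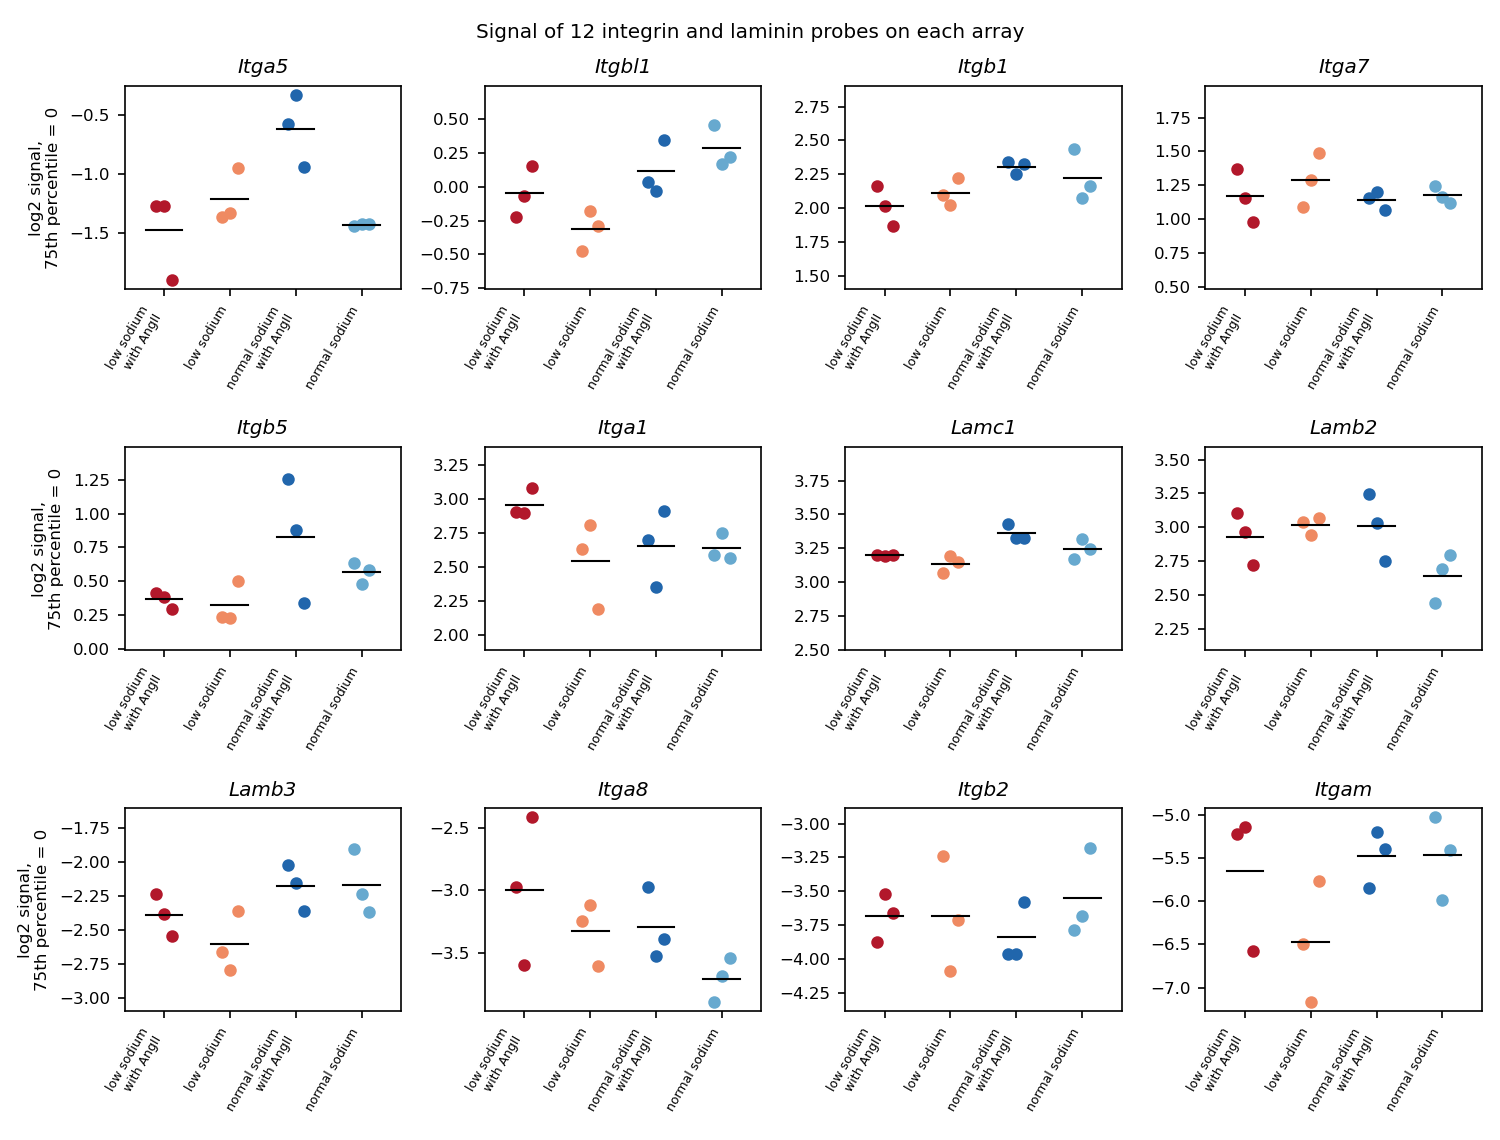
Dot plots of 12 genes: the vertical axis is log2 signal relative to the 75th percentile of the array, each dot is 1 array in replicate order and the bar is the group mean (n = 3). Vertical axes differ between genes. Itga5 is highest in normal sodium with AngII, and Lamc1 lies between 3.07 and 3.43 on all 12 arrays.

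The leukocyte integrins were dim and did not separate the groups as a family. Itgb2, the beta 2 chain common to the leukocyte integrins of the alpha L, alpha M, alpha X and alpha D kinds, read -3.88, -3.52 and -3.66 in low sodium with AngII against -3.96, -3.97 and -3.58 in normal sodium with AngII. Without AngII it read -3.24, -4.09 and -3.71 in low sodium against -3.79, -3.68 and -3.18 in normal sodium. All 4 groups overlapped. Its low sodium difference was 0.15 ± 0.23 with AngII and -0.13 ± 0.23 without, and its AngII difference was -0.01 ± 0.23 on low sodium and -0.29 ± 0.23 on normal sodium. Itgal, the alpha L chain of lymphocytes, read -6.03, -5.12 and -5.93 in low sodium with AngII, -5.45, -6.05 and -5.29 in low sodium, -6.61, -5.78 and -5.26 in normal sodium with AngII, and -5.55, -5.44 and -5.91 in normal sodium. Its direct differences lay between -0.25 and 0.19 with SE of 0.35.

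Itgam, the alpha M chain of macrophages and neutrophils (CD11b), read -6.49, -7.17 and -5.77 in low sodium against -5.02, -5.98 and -5.40 in normal sodium, and 2 of the 3 low sodium arrays were well above background. With AngII it read -5.22, -5.13 and -6.57 in low sodium against -5.85, -5.19 and -5.39 in normal sodium. Both pairs overlapped, and 1 array of low sodium with AngII lay below the other two. The low sodium difference was -1.01 ± 0.44 without AngII (unadjusted p = 0.043, limma adjusted p = 0.70) and -0.17 ± 0.44 with it. AngII on low sodium gave 0.83 ± 0.44, with 1.27, 2.04 and -0.80 on the 3 slides. It was 0.31 with normexp background correction, 0.49 when replicate 2 of low sodium was left out and 1.30 when replicate 3 of low sodium with AngII was. Itgb7, the beta chain of gut-homing lymphocytes, read -4.64, -4.58 and -5.08 in low sodium with AngII against -4.34, -4.21 and -4.60 in normal sodium with AngII. In rats without AngII it read -4.54, -4.63 and -4.47 in low sodium against -4.06, -4.66 and -3.95 in normal sodium. The mean low sodium difference was -0.35 ± 0.14 (unadjusted p = 0.031, limma adjusted p = 0.34), but -0.20 with normexp background correction and -0.014 in the authors' values. Itga4, which pairs with beta 7 or beta 1 and binds VCAM-1, did not overlap between low sodium with AngII and normal sodium with AngII at -0.31 ± 0.22, and Itgad gave direct differences between -0.22 and -0.07.

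Over the 6 leukocyte integrins the median low sodium difference was -0.23 without AngII (5 of 6 below 0, against -0.01 over all probes tested) and -0.13 with AngII (4 of 6 below 0, against -0.05), where the authors' own normalised values gave 0.30. The median AngII difference was -0.19 on normal sodium, with 6 of 6 below 0, and -0.09 on low sodium, with 5 of 6 below 0. Over the 10 other integrins tested the median low sodium difference was -0.17 without AngII (7 of 10 below 0) and 0.066 with AngII (4 of 10 below 0). Their median AngII difference was 0.012 on normal sodium (4 of 10 below 0) and 0.18 on low sodium (3 of 10 below 0). Of all probes tested, 48.3% were above 0 for low sodium without AngII, 41.8% for low sodium with AngII, 54.2% for AngII on normal sodium and 45% for AngII on low sodium. The macrophage markers were below 0 for low sodium with AngII against normal sodium with AngII in 10 of 10 cases, with a median of -0.56 and 6 at an unadjusted p under 0.05, all lower, against 7.41% of all probes lower. Without AngII 9 of 10 were below 0 with a median of -0.32, and 2 had an unadjusted p under 0.05, both lower, against 4.16%. For AngII on normal sodium 7 of the 10 macrophage markers were above 0 with a median of 0.14. On low sodium 5 of the 10 were above 0 with a median of 0.017. Their summed signal was 13.1 to 16.8 times the 75th percentile in low sodium with AngII and 17.0 to 19.5 times in normal sodium with AngII, while without AngII it was 14.2 to 20.6 in low sodium and 13.7 to 21.0 in normal sodium. The 13.7 was read on normal sodium replicate 1. Of the lymphocyte markers 7 of 10 were tested, and for low sodium 4 of the 7 were below 0 with AngII and 6 of the 7 without. Of the neutrophil markers 3 of 6 were tested, with 1 of the 3 below 0 with AngII and 2 without. For AngII on normal sodium 5 of the 7 lymphocyte and 2 of the 3 neutrophil markers were below 0. There 1 neutrophil marker had an unadjusted p under 0.05, higher, against 4.24% of all probes higher. For AngII on low sodium 2 of the 7 and 0 of the 3 were below 0. In whole tissue, fewer cells of a type and less RNA per cell cannot be told apart, and the part of these cells in the leukocyte integrin values was not tested.

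Of the laminin gamma chains, Lamc1 encodes gamma 1, the chain of most laminins including those of muscle and vessels. It read 3.20, 3.19 and 3.20 in low sodium with AngII, 3.07, 3.19 and 3.15 in low sodium, 3.43, 3.33 and 3.32 in normal sodium with AngII, and 3.17, 3.32 and 3.25 in normal sodium. The normal sodium with AngII arrays were all above the 3 low sodium with AngII arrays. They were just above the 3 normal sodium arrays (lowest 3.323 against highest 3.320), and the low sodium with AngII arrays were just above the low sodium ones. The differences were small: -0.16 ± 0.09 for low sodium with AngII, 0.11 ± 0.09 for AngII on normal sodium and 0.06 ± 0.09 for AngII on low sodium (limma adjusted p = 0.54, 0.76 and above 0.99). A second tested probe of Lamc1 gave -0.35 ± 0.22, 0.19 ± 0.22 and 0.05 ± 0.22 for the same comparisons, and its groups overlapped in each.

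Lamc3, another gamma chain, passed no filter: its probe was well above background on 2 of 3 low sodium arrays and on none of the other 9, with -6.47, -7.08 and -7.37 in low sodium against -7.64, -7.82 and -8.77 in normal sodium.

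Lamb2, the beta 2 chain of muscle, vessel and nerve terminal laminins, read 3.04, 2.94 and 3.07 in low sodium against 2.44, 2.69 and 2.79 in normal sodium. With AngII it read 3.11, 2.96 and 2.72 in low sodium against 3.25, 3.03 and 2.75 in normal sodium. The 3 normal sodium arrays were below the low sodium ones and overlapped those of normal sodium with AngII by 1 array. Low sodium without AngII gave 0.38 ± 0.16 (unadjusted p = 0.034, limma adjusted p = 0.68), with 0.60, 0.25 and 0.28 on the 3 slides. AngII on normal sodium gave 0.37 ± 0.16 (unadjusted p = 0.037, limma adjusted p = 0.67), with 0.81, 0.34 and -0.04 on the 3 slides, and 0.27 without normal sodium replicate 1 and 0.15 without slide 1. With AngII the low sodium difference was -0.08 ± 0.16, and the interaction was -0.46 ± 0.22 (limma adjusted p = 0.86). Lamb3, the beta 3 chain of epithelial laminin, read -2.66, -2.80 and -2.36 in low sodium against -1.90, -2.23 and -2.37 in normal sodium, and -2.24, -2.38 and -2.54 in low sodium with AngII against -2.02, -2.15 and -2.36 in normal sodium with AngII. Both pairs overlapped, and the mean low sodium difference was -0.32 ± 0.12 (unadjusted p = 0.018, limma adjusted p = 0.29).

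Of the laminin alpha chains, Lama5, an alpha chain of vessel and epithelial basement membranes, gave direct differences between -0.19 and 0.18 with SE of 0.17, and all its groups overlapped. Lama1 was not well above background on any of the 12 arrays. Over the 5 tested laminins the median AngII difference on normal sodium was 0.18, with 4 of 5 above 0, against 0.02 over all probes. The median low sodium difference with AngII was -0.16, with 5 of 5 below 0, against -0.05. Markers of smooth muscle and pericytes were above 0 for AngII on normal sodium in 7 of 7 cases with a median of 0.58 and 4 at an unadjusted p under 0.05, all higher, against 4.24% of all probes higher. For low sodium without AngII, the comparison in which the Lamb2 groups did not overlap, 5 of 7 were above 0 with a median of 0.52. Of the 7, 2 had an unadjusted p under 0.05, both higher, against 2.87%. For low sodium with AngII 6 of 7 were below 0 with a median of -0.13, and 2 had an unadjusted p under 0.05, both lower, against 7.41%. For AngII on low sodium 3 of the 7 markers were above 0, with a median of -0.0094. Their summed signal was 11.9 to 15.0 times the 75th percentile in normal sodium with AngII and 8.99 to 11.3 times in normal sodium, and on low sodium it was 9.64 to 13.1 with AngII and 10.5 to 11.7 without. The 8.99 was read on normal sodium replicate 1, against 9.52 and 11.3 on replicates 2 and 3. Of these 7 markers 6 were well above background on all 12 arrays. Their part in the laminin and integrin values was not tested.

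**Figure D3:**
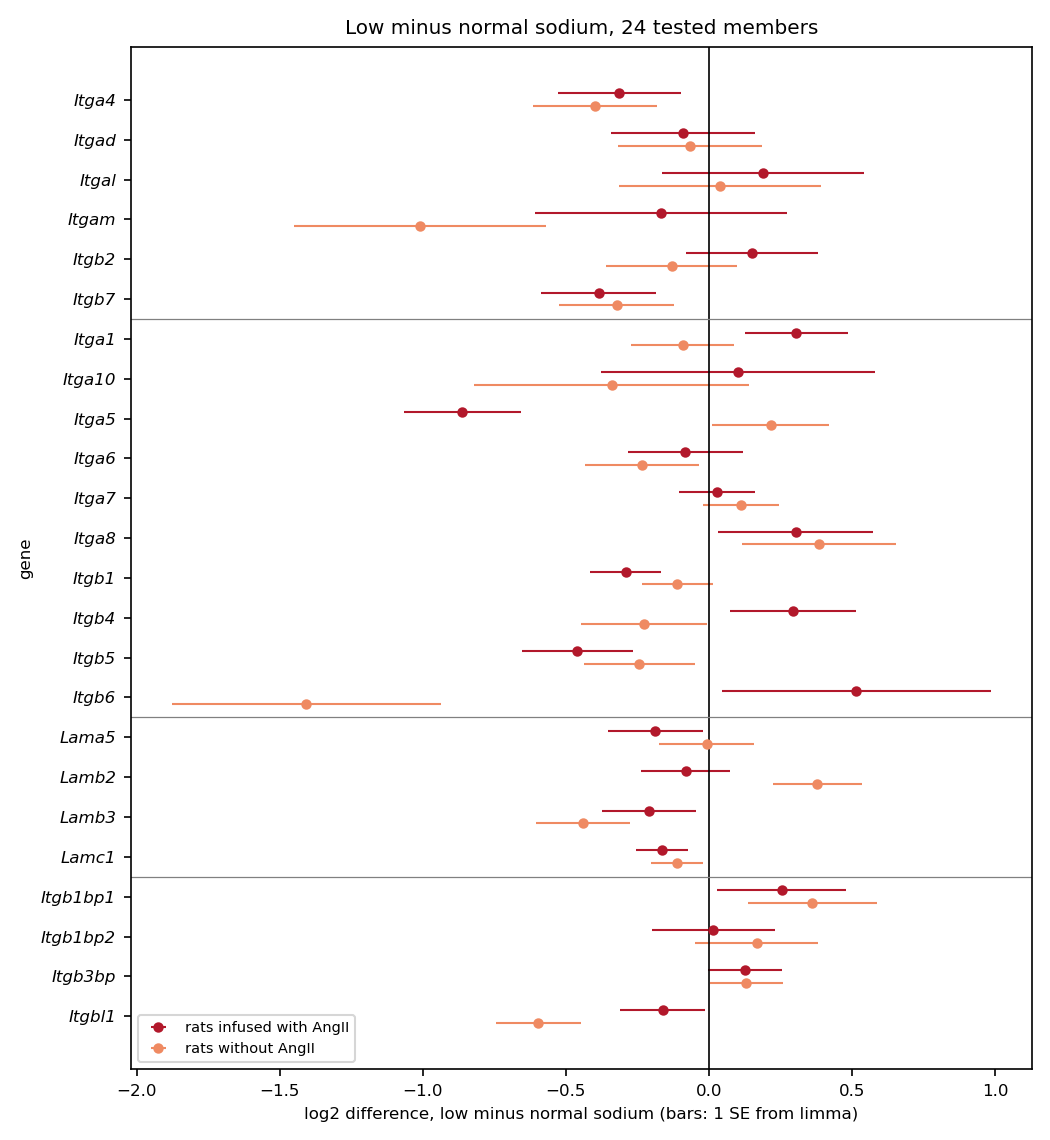
Log2 differences, low minus normal sodium, of 24 of the 25 tested genes, in rats with AngII (dark) and without (light), as points with bars of 1 SE. Itga5 sits at -0.86 with AngII and 0.22 without, Itgbl1 at -0.16 with AngII and -0.60 without, and no point passed the adjusted test.

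The genes named after integrins without being integrin chains included Itgbl1, which encodes a secreted protein with repeats like those of the beta chain. It read -0.47, -0.18 and -0.29 in low sodium against 0.46, 0.17 and 0.22 in normal sodium. With AngII it read -0.22, -0.07 and 0.15 in low sodium against 0.04, -0.03 and 0.35 in normal sodium. The groups without AngII did not overlap and those with AngII did. Low sodium without AngII gave -0.60 ± 0.15, or 1.51-fold lower, with -0.93, -0.35 and -0.51 on the 3 slides (unadjusted p = 0.0022, limma adjusted p = 0.58, and 0.45 with slide as a block). With AngII the difference was -0.16 ± 0.15, and over both infusion states it was -0.38 ± 0.11 (unadjusted p = 0.0044, limma adjusted p = 0.19, and 0.20 with the block). Without normal sodium replicate 1 the difference in rats without AngII was -0.51. Itgb1bp2 encodes melusin, a muscle protein that binds the tail of the beta 1 chain and takes part in the response of the heart to pressure load in mice. Its direct differences lay between -0.01 and 0.17 with SE of 0.21. Itgb1bp1, an adaptor that holds the beta 1 chain inactive, lay between 0.11 and 0.36 with SE of 0.23, and Itgb3bp, a protein of the centromere, between 0.13 and 0.14 with SE of 0.13.

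Counted over all members, 5 of 25 did not overlap between low sodium and normal sodium without AngII (3 higher, with Itga5 and Lamb2 among them, and Itgb4 and Itgbl1 lower), against 10.9% of all probes, 5.04% higher and 5.9% lower. With AngII 4 of 25 did not overlap, all lower in low sodium (Itga4, Itga5, Itgb1 and Lamc1), against 22.2%, of which 12.3% were lower. For AngII on normal sodium 3 of 25 did not overlap, all higher with AngII (Itga5, Itga8 and Lamc1), against 13.1%, with 7.47% higher and 5.6% lower. For AngII on low sodium it was 3 of 25, all higher with AngII (Itga1, Itgb6 and Lamc1), against 6.12%, with 3.08% higher and 3.04% lower. Over both infusion states 0 of 25 members separated the diets without overlap, against 1.34% of all probes. Over both diets 0 of 25 separated AngII from no AngII, against 0.0749%.

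**Figure D4:**
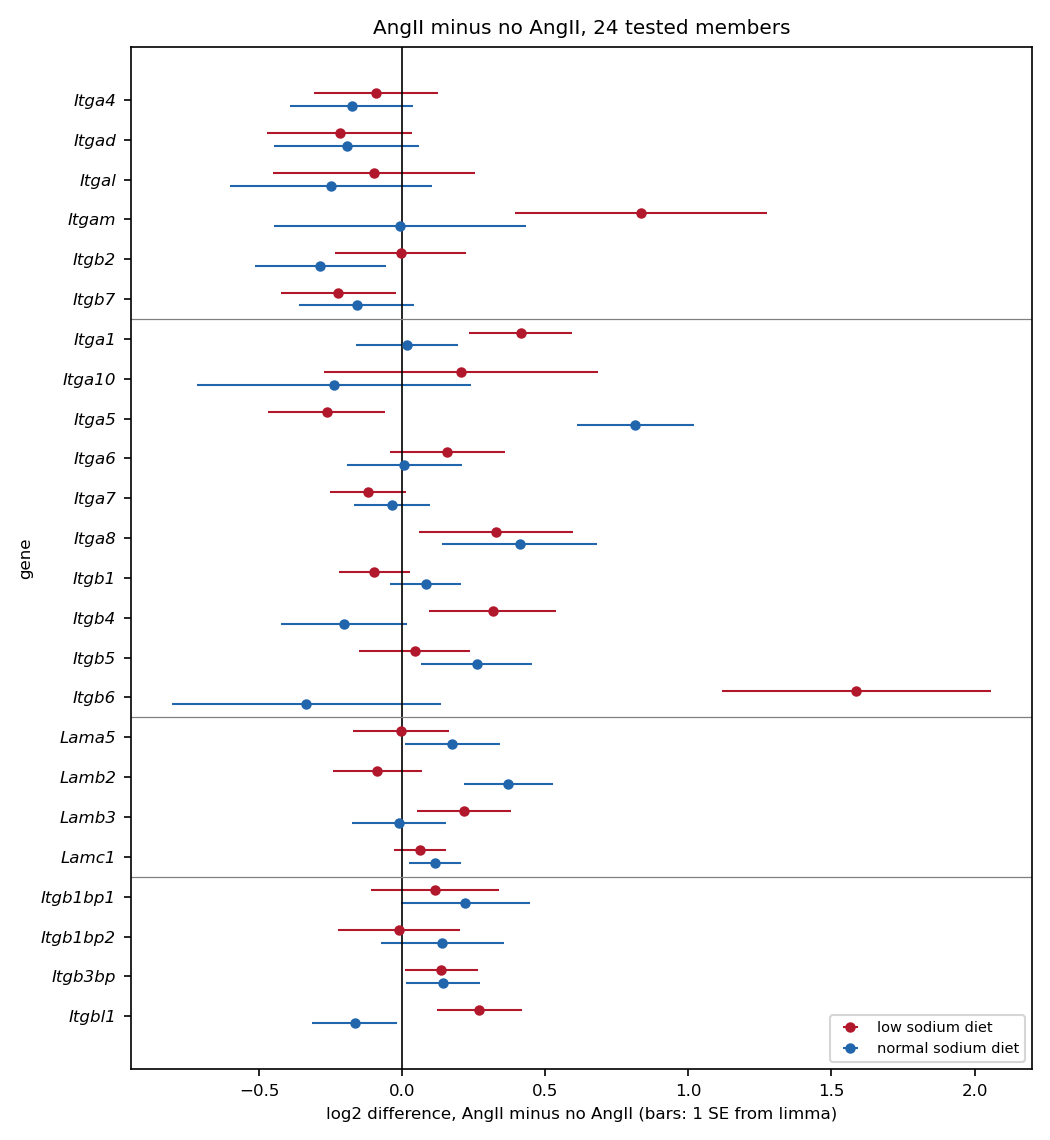
Log2 differences, AngII minus no AngII, of 24 of the 25 tested genes on the low sodium (red) and normal sodium (blue) diets, as points with bars of 1 SE. Itga5 sits at 0.81 on normal sodium and -0.26 on low sodium, Itgb6 at 1.59 on low sodium and -0.33 on normal sodium, and no point passed the adjusted test.

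The partners of integrins were taken from 4 lists, in which 0 genes passed the adjusted test in any comparison. Among focal adhesion genes, which join integrin tails to actin, 28 of 30 were tested. In low sodium with AngII against normal sodium with AngII, 21 of 28 were below 0 with a median of -0.24 against -0.05 over all probes, and 6 had an unadjusted p under 0.05, all lower, against 7.41% of all probes lower. Zyx (zyxin, at adhesions under tension) read 0.64, 0.52 and 0.12 in low sodium with AngII against 1.01, 1.08 and 0.92 in normal sodium with AngII, a difference of -0.57 ± 0.16 (limma adjusted p = 0.29). Parva, which binds the integrin-linked kinase, gave -0.31 ± 0.11 and Fermt3, the kindlin of blood cells, -0.60 ± 0.21, and neither overlapped between the groups. For AngII on normal sodium, 20 of 28 were above 0 with a median of 0.09. Actn1, an actin cross-linker, read -1.36, -1.11 and -1.27 with AngII against -2.10, -1.71 and -1.60 without, a difference of 0.56 ± 0.18 (limma adjusted p = 0.67). Flna (filamin A) at 0.74 ± 0.28 and Bcar1 at 0.36 ± 0.15 were the next by p, and both had their lowest value on normal sodium replicate 1.

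Of the integrin ligands 15 of 23 were tested. In low sodium with AngII against normal sodium with AngII, 13 of 15 were below 0 with a median of -0.36. Col3a1 (collagen III) read 3.28, 3.31 and 3.43 in low sodium with AngII against 4.25, 4.16 and 4.26 in normal sodium with AngII, and 3.17, 3.34 and 3.45 in low sodium against 3.83, 3.55 and 3.86 in normal sodium. Neither pair overlapped. Its low sodium difference was -0.88 ± 0.12 with AngII, close to equal on the 3 slides at -0.96, -0.86 and -0.83 (unadjusted p = 1.58e-05, limma adjusted p = 0.079), and -0.42 ± 0.12 without (limma adjusted p = 0.58). Postn (periostin, made by activated fibroblasts) read -6.40, -7.10 and -6.64 in low sodium with AngII against -5.33, -5.57 and -5.15 in normal sodium with AngII. The groups did not overlap, and the difference was -1.36 ± 0.21 (limma adjusted p = 0.14). Postn was dim, however. Its -7.10 on low sodium with AngII replicate 2 lay below -6.46, the lowest signal well above background on that array. Vcam1, the endothelial ligand of the alpha 4 integrins, had the opposite sign at 0.64 ± 0.17 (limma adjusted p = 0.29). Fn1, the ligand of Itga5, gave -0.45 ± 0.22 for low sodium without AngII (limma adjusted p = 0.72). For AngII on normal sodium the ligands had a median of 0.31 with 10 of 15 above 0, led by Postn at 0.96 ± 0.21 and Col3a1 at 0.48 ± 0.12 (limma adjusted p = 0.51 and 0.67). On low sodium the median AngII difference was -0.05. The 5 tested fibroblast markers, of which Col1a1 is also in the ligand list, were below 0 for low sodium with AngII in 5 of 5 cases. Their summed signal was 25.8 to 30.7 times the 75th percentile in low sodium with AngII and 31.0 to 33.5 times in normal sodium with AngII, and their part in the ligand values was not tested.

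Of the other basement membrane genes 11 of 18 were tested. Sparc, a collagen-binding matrix protein, read 5.92, 6.03 and 5.50 in low sodium with AngII against 6.65, 6.73 and 6.44 in normal sodium with AngII, a difference of -0.79 ± 0.18 (limma adjusted p = 0.28). Nid2, which links laminin to collagen IV, read -1.60, -1.59 and -1.84 in low sodium with AngII against -1.26, -0.56 and -1.01 in normal sodium with AngII, a difference of -0.74 ± 0.21 (limma adjusted p = 0.30). Neither pair overlapped. Col4a4, a chain of collagen IV, was higher in low sodium with AngII at 0.53 ± 0.17 (limma adjusted p = 0.31), so the members of the list did not share a sign, and 8 of 11 were below 0. For AngII on normal sodium 9 of 11 were above 0 with a median of 0.21, and on low sodium 10 of 11 with a median of 0.18. Col18a1, the source of endostatin, had the smallest p on both diets, with 0.51 ± 0.18 on normal sodium and 0.49 ± 0.18 on low sodium (limma adjusted p = 0.67 and above 0.99).

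The dystroglycan complex, the other laminin receptor of muscle, had 16 of 18 genes tested. In low sodium with AngII against normal sodium with AngII 12 of 16 were above 0 with a median of 0.16 against -0.05 over all probes. Of the 16, 0 had an unadjusted p under 0.05, against 11.1% of all probes. Dag1, which encodes dystroglycan, read 4.60, 4.66 and 4.60 in low sodium with AngII against 4.52, 4.22 and 4.47 in normal sodium with AngII, a difference of 0.22 ± 0.12 (limma adjusted p = 0.52). Pomt1, which adds sugars to dystroglycan, had a smaller p at 0.29 ± 0.14. The groups of Dag1 did not overlap, nor did they for 6 of 16 genes of the list, all higher, against 9.92% of probes higher. For AngII on normal sodium the median was -0.07, with 11 of 16 below 0.

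**Figure D5:**
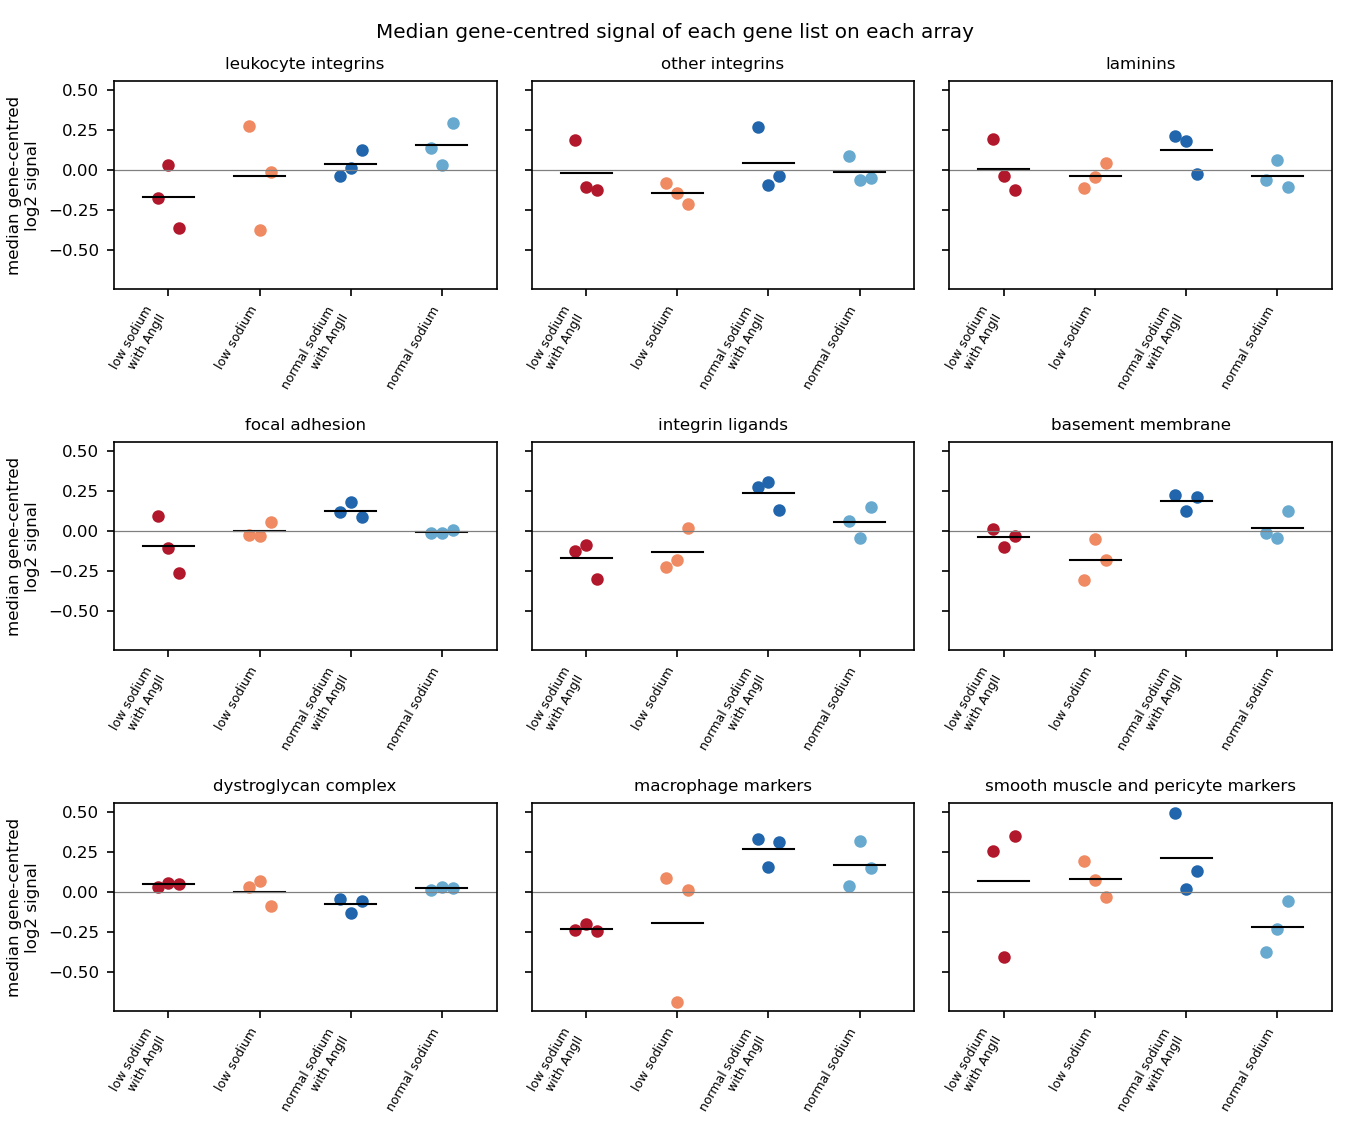
Median gene-centred log2 signal of 9 gene lists on each array: a dot is the median over the genes of a list on 1 array, a bar the group mean of the dots (n = 3), and each gene was centred on its mean over all arrays. The integrin ligands are above 0.1 on all 3 normal sodium with AngII arrays and below 0 on all 3 low sodium with AngII arrays, while the leukocyte integrins and the laminins overlap between all groups.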

How the data were processed

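Left ventricle RNA was hybridised to 12 one-colour Agilent arrays. The deposited scanner files give processed signal intensity per spot, which per the file headers came from Agilent Feature Extraction 10.7.3.1, while the submitters' processing notes name 11.0.1.1, R 3.3.04 and limma. The deposited flags mark spots as well above background, saturated or outliers, and no spot was saturated. The authors also deposited a table of log2 values, whose normalisation is not given in the sources used here, and it served as an alternative.

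Control and outlier-flagged spots were left out and spots of a probe averaged. Log2 intensity minus the 75th percentile of each array over non-control probes was used in R 4.3.3 with limma 3.58.1 (lmFit, eBayes, 1 mean per group, 8 residual degrees of freedom), two-sided, with Benjamini-Hochberg adjustment at 0.05. A probe was tested if well above background on all 3 arrays of at least 1 group (20020 of 30367 probes). The code was tested on simulated data. The members and gene lists were chosen with earlier results of these data known. Named genes are the 4 smallest p per comparison and a core of 10, of which Lama2, Lama4 and Lamb1 had no probe. Up to 3 genes of each partner list are named per comparison. The values of 1 member and 1 partner gene are not reported here, though both count in the totals. Deviations from the group means were correlated in all 18 pairs of samples with the same replicate number (r from 0.047 to 0.43, median 0.22). In 36 pairs with different numbers r ran from -0.35 to 0.15 (median -0.18). The headers show that samples of the same replicate number shared a slide.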

Additional observations from a re-analysis of the deposited data

How the results depend on the processing

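All 28 gene differences named by the smallest p kept their sign in every alternative run, except that of Itgb7 for low sodium with AngII, which was 0.011 in the authors' values. No integrin or laminin was called in any of the 24 alternatives, and with the slide as a replicate block 0 probes were called in each comparison too. The cause of the changes below was not tested. Called probes in low sodium with AngII numbered 3 with normexp, 1 with quantile normalisation, 4 with median scaling, 2 with probes above background on all arrays, 2 in the authors' values and 8 with array weights. In the mean low sodium effect they numbered 4 with normexp, 1 without a filter and 81 with array weights. For AngII on normal sodium they numbered 6 with normexp, 3 with the stricter filter and 5 in the authors' values. In the run reported above the interaction medians were 0.12 for leukocyte integrins, 0.034 for other integrins and -0.18 for laminins. The leukocyte integrin median was -0.22 for the mean low sodium effect. The laminin median was -0.0077 for low sodium without AngII and -0.0034 for AngII on low sodium. In the authors' values the leukocyte integrin median was 0.30 for low sodium with AngII, 0.083 for the mean low sodium effect, -0.42 for AngII on normal sodium and 0.39 for the interaction, and the laminin median was 0.35 for AngII on normal sodium and -0.33 for the interaction. With array weights the median of the other integrins was -0.16 for low sodium with AngII, -0.0079 for AngII on low sodium and -0.12 for the interaction, and that of the laminins was -0.32 for the interaction. Median scaling moved the median of all probes by 0.10 for low sodium with AngII.

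Leaving out 1 array gave 0 to 1 called probes for low sodium without AngII, 0 to 3 with AngII, 0 to 20 for the mean low sodium effect and 0 to 9 for AngII on normal sodium. The 20 came without normal sodium replicate 2, and leaving out normal sodium replicate 1 or 3 gave 1 each. The 9 came without low sodium replicate 1, while omitting low sodium with AngII replicate 3 gave 3 and normal sodium with AngII replicate 1 gave 2. The 3 for low sodium with AngII came without normal sodium replicate 1, and 1 came without low sodium with AngII replicate 3. For low sodium without AngII, omitting normal sodium replicate 2 or 3 gave 1 each. In the following, all values are log2 medians, first over omissions of 1 array and then of 1 slide. The leukocyte integrins ran from -0.36 to -0.10 and from -0.42 to -0.011 for low sodium without AngII, from -0.28 to 0.11 and from -0.26 to 0.15 with AngII, and from -0.26 to 0.10 and from -0.29 to 0.15 for AngII on low sodium. The laminins ran from -0.075 to 0.16 and from -0.11 to 0.19 for low sodium without AngII, from -0.12 to 0.064 and from -0.16 to 0.068 for AngII on low sodium, and from -0.34 to -0.089 and from -0.32 to -0.075 for the interaction. The other integrins ran from 0.058 to 0.34 and from 0.018 to 0.40 for AngII on low sodium, and from -0.076 to 0.26 and from 0.012 to 0.28 for the interaction. The precision is limited by 3 arrays a group and by dim probes: Itgb6, Itgam, Itgal and Itga10 were not well above background on all 12 arrays. The partner gene Postn was not either.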

Other observations

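Among markers that were not set beside a member above, all 7 endothelial markers were below 0 for low sodium both with AngII (median log2 difference -0.33) and without (median -0.30), and 3 of 7 had an unadjusted p under 0.05 in each, all lower, against 7.41% of all probes lower with AngII and 4.16% without. Their summed signal was 22.5 to 23.3 times the 75th percentile in low sodium with AngII against 24.5 to 26.2 in normal sodium with AngII, and 21.0 to 26.2 in low sodium against 22.3 to 35.1 in normal sodium. The 35.1 was read on normal sodium replicate 1, against 22.3 and 25.6 on replicates 2 and 3. Of 4 tested platelet markers 2 were below 0 for low sodium with AngII and 3 without. The 3 atrial markers had a median of 0.98 for low sodium with AngII (3 of 3 above 0) and 0.85 without (2 of 3). Of these 3, 0 had an unadjusted p under 0.05 in each, against 11.1% and 7.03% of all probes. Their median gene-centred signal ran from -0.060 to 1.81 in low sodium with AngII and from -2.23 to 0.051 in normal sodium with AngII. The part of atrial tissue in the values above was not tested.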
